A study of Mus musculus with 24 samples.

Results

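The genes described here are 35 sarcomere and calcium handling genes of heart muscle, listed by name for their roles in contraction, with earlier results of these data known, and 34 of the 35 were measured among 18820 genes. Each was read from the probe set that the array's annotation pairs with that gene symbol alone and, where a gene had several, from the brightest by mean signal. Myh6, the alpha heavy chain of cardiac myosin, was only covered by a probe set shared with Myh7, so it has no value of its own, and Murc was found under its other symbol, Cavin4. The question is how high these genes were expressed and how stable they stayed over genotypes and treatments.

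The samples were left ventricles of male mice on 24 arrays, in 8 groups of 3. The study's methods speak of separate animals within a condition, while the labels tie no array to an animal, so p-values measure the spread between these samples. The mice were wildtype controls or Period 2 deficient mice (Per2-/-, which lack a gene of the circadian clock), both labelled with the strain BL6C57, 12 to 16 weeks old and operated under pentobarbital at the onset of light. Under each genotype, the control hearts, called sham here, were labelled both untreated and sham operated, I30 hearts were ischemic for 30 minutes and taken without reperfusion, and IP0 hearts were preconditioned, with occlusion for 5 minutes and release for 5 minutes, repeated 4 times. I30R60 hearts were ischemic for 30 minutes and then reperfused for 60. Values are log2 signals of Affymetrix gene arrays, normalized by the authors, so that 1 unit is a 2-fold difference, and no detection calls came with them.

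In heart muscle, myosin of the thick filament pulls on actin of the thin filament when calcium binds troponin, titin and the M band hold the thick filament in place, and the Z disc anchors the thin filaments. Calcium leaves the sarcoplasmic reticulum through the ryanodine receptor next to the transverse tubule and is pumped back by the calcium ATPase, which phospholamban restrains. These genes are among the most abundantly transcribed of the ventricle, and serum response factor, MEF2, GATA4 and TEAD factors with the coactivator myocardin are known to drive many of them.

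All arrays carried the ventricular genes at a high level, and the lowest correlation of 2 arrays of a group over all probe sets was 0.9805. The Per2 probe set ranged from 4.66 to 6.71 in wildtype hearts and from 4.94 to 6.25 in Per2-/- hearts and so did not separate the genotypes. Where it lies relative to the removed exons is not given in the sources used here, so it does not check the genotype labels. The atrial light chain Myl7 stood out on 4 arrays, at 8.24 and 5.22 in wildtype sham replicates 1 and 2, at 11.21 in the third Per2-/- sham heart and at 9.12 in the third Per2-/- IP0 heart, against at most 3.73 elsewhere. Myl4, the other atrial light chain, was 10.73 to 12.72 on 3 of them and at most 7.88 on the rest. Because 2 of the 4 arrays are wildtype sham hearts, each call of a member and the median differences were also computed without them. So was each call of a further sarcomere, calcium handling or transcription factor gene named below. The calls of cell type markers and of further probe sets of a gene were not recomputed without these arrays. The mean over 10 skeletal muscle markers lay between 3.35 and 3.70 on every array. Of 8 lung epithelium markers 4 were higher after I30 in wildtype hearts, and of 7 neutrophil markers 5 were higher after I30R60 in Per2-/- hearts and 1, Mmp8, in wildtype hearts. Of 8 endothelial markers Kdr was lower after I30 in wildtype hearts (-0.94) and Kdr and Egfl7 after I30R60 in Per2-/- hearts (-0.69 and -0.71) and over both genotypes. Over both genotypes the macrophage marker C1qb was lower after IP0 (-0.40), and Mrc1, the fibroblast marker Postn and the red blood cell marker Alas2 were higher after I30R60. Between genotypes over all treatments the smooth muscle marker Acta2 was lower in Per2-/- hearts (-0.47) and the fibroblast markers Postn and Lum were higher (0.35 and 0.24). The part of these cells in the results below was not tested.

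The members sat near the top of the signal scale. Their means over the 24 arrays ran from 7.98 (Myh7) to 13.37 (Tnnt2) with a median of 11.75, while the median over all genes tested was 5.15. Of the 12 genes with a mean of at least 13, 6 were members (Tnnt2, Actc1, Mb, Atp2a2, Tnni3 and Pln), as were 15 of the 72 genes with at least 12 and 28 of the 544 genes with at least 10. The ventricular light chains Myl2 and Myl3 averaged 12.61 and 12.95. The highest signal on any array lay between 13.68 and 13.94, so the brightest members were within 1 unit of the top, and whether the scale compresses differences there was not tested. Levels are probe set signals and are not compared between genes as amounts of RNA.

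The group means of the members moved little. The range of the 8 group means, the highest minus the lowest, had a median of 0.14 log2 over the 34 members against 0.37 over all genes, 0.29 over the genes with a mean of at least 6 and 0.20 over the genes with at least 10. The SD between the 3 arrays of a group, pooled over the groups, had a median of 0.061 over the members, 0.17 over all genes and 0.070 over the genes with a mean of at least 10. For 28 of the 34 members, or 82.4%, the 95% confidence intervals of all 6 treatment differences from sham lay within 1.5-fold up or down, as they did for 51.9% of all genes, 76.6% of the genes with a mean of at least 6 and 91.2% of those with at least 10. Of the 28 members with a mean of at least 10, 25 had all intervals within 1.5-fold, or 89.3%, beside the 91.2% of that class. Without the 4 arrays with high Myl7 the median range of the members was 0.16, and 26 of the 34 had all 6 intervals within 1.5-fold. In all, 189 of 204 intervals lay within 1.5-fold. The 6 members with an interval that did not were Myh7 (0 of its 6 intervals within), Tcap (2), Flnc (4), and Jph2, Smyd1 and Myocd (5 each).

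**Figure D1:**
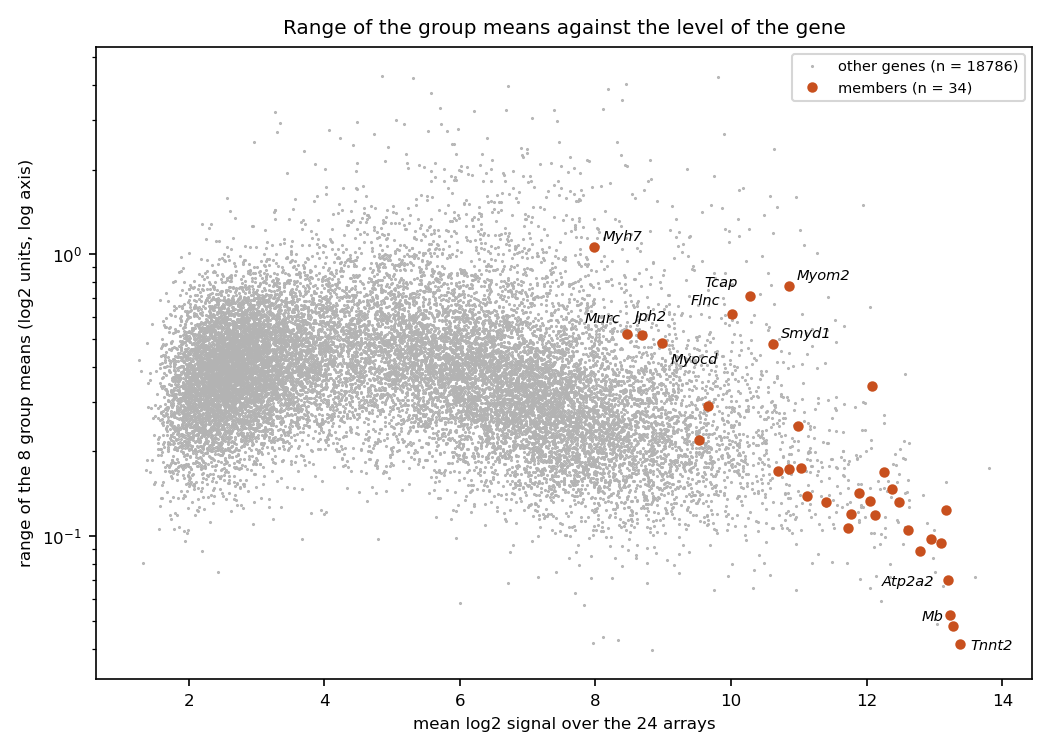
Range of the 8 group means (log2 units, log axis) against the mean log2 signal over the 24 arrays for each gene, with the 34 members in orange and all other genes in grey. The brighter members had the smaller ranges, from 1.06 for Myh7 at a level of 7.98 down to 0.042 for Tnnt2 at 13.37.

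Level and stability went together among the members. Across genes, which are not independent replicates and share the same arrays, the rank correlation of mean and range was -0.887 over the 34 members and -0.242 over all genes. Of the 9 members with a range above 0.3, only Mybpc3 had a mean of at least 12, and Myocd, Jph2, Murc and Myh7 were under 9. Deviations of single arrays from their group mean had a median correlation of 0.157 over the 561 pairs of members and of 0.556 over the 15 pairs of the 6 brightest, the highest being 0.828 for Actc1 and Atp2a2. In wildtype I30 replicate 1, 22 of the 34 members and all 6 of the brightest were the lowest of the 3 arrays of their group, and in Per2-/- I30R60 replicate 1 this held for 19 members and all 6 of the brightest. In that wildtype array the 6 brightest members deviated from the group mean by a median of -0.09, the lowest of the 24 arrays. The same array had the highest lung epithelium mean of all (4.45, against 3.87 and 3.43 in its group). It also had the highest neutrophil (5.55 against 4.33 and 3.96) and red blood cell means (5.71 against 4.96 and 4.92) of its group. The red blood cell mean rests on 2 of 7 listed genes. The median (4.43) and highest signal (13.71) of that array were the lowest of its group. In Per2-/- I30R60 replicate 1 the lung epithelium mean was 2.88 (2.76 and 2.84 in its group). Its neutrophil mean was 5.32 (4.66 and 5.53) and its red blood cell mean 5.05 (4.57 and 5.58). Its array median, 4.39, was the lowest of the 24. What lowered the members on these arrays was not tested.

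**Figure D2:**
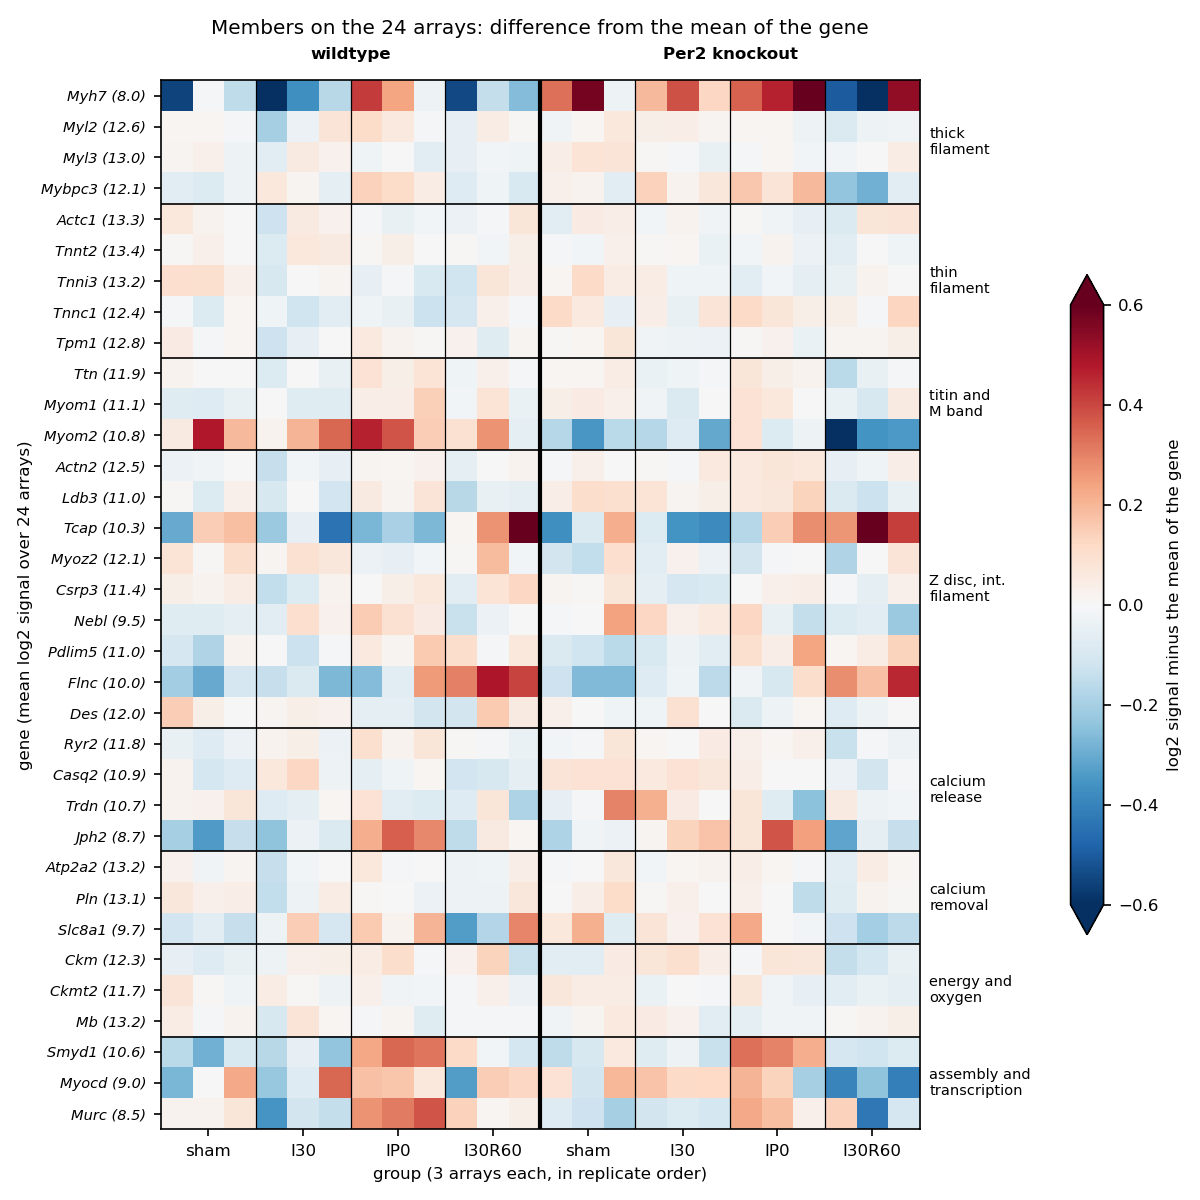
Log2 signal of each member minus its mean over the 24 arrays, in rows ordered by role with that mean in parentheses, and with the arrays in columns by group; colours end at 0.6 up or down. The rows of the thin filament stay pale, and that of Myh7 passes the colour limit in both directions. Smyd1, Jph2 and Murc are red in the IP0 columns of both genotypes, and Flnc in the I30R60 columns. Myom2 is blue over the sham, I30 and I30R60 columns of Per2-/- hearts and pale in their IP0 columns.

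The promoters were read for sites of the factors named above. RefSeq promoters on GRCm38.p6, 250 bases before to 50 bases after a gene start, were given for 30 of the 35 members (43 promoters); for Myom2, Tcap, Trdn, Atp2a2 and Myocd none was used here. On either strand, the CArG box bound by serum response factor stood in 6 of the 43 (14%) against 1.63% of all 32851 promoters, the MEF2 site in 4 (9.3% against 3.19%), the TEAD site CATTCC in 10 (23.3% against 14.7%), the GATA site AGATAA in 7 (16.3% against 11.2%), the TATA box TATAAA in 7 (16.3% against 13.6%) and the E box CACGTG, which clock factors bind, in 2 (4.65% against 7.15%, Actn2 and Nebl). No TATA box overlapped a MEF2 site in these promoters. Promoters of a gene can overlap, and the same CArG box of Ldb3 and the same TEAD site of Flnc were counted in both promoters of their gene. Counted by gene, the CArG box stood in 5 and the TEAD site in 9 of the 30 members with a promoter. The shares over all promoters are counted by promoter as well. A match is a description of the letters and not a bound site. The 120 bases before the most upstream listed start are shown, 5′ to 3′ on the coding strand with the motifs in capitals, first for members that changed with treatment, then for Mybpc3 with its MEF2 site, and then for 4 of the 5 members with a CArG box, the fifth being Nebl, whose box begins 162 bases before a start. The windows are Smyd1 (chr6:71262282-71262401, minus strand), Jph2 (chr2:163397994-163398113, minus strand), Pdlim5 (chr3:142395697-142395816, minus strand), Flnc (chr6:29433033-29433152, plus strand), Mybpc3 (chr2:91118024-91118143, plus strand), Actc1 (chr2:114052876-114052995, minus strand), Ldb3 (chr14:34588682-34588801, minus strand), Myl3 (chr9:110763558-110763677, plus strand) and Myom1 (chr17:71019437-71019556, plus strand).
Smyd1: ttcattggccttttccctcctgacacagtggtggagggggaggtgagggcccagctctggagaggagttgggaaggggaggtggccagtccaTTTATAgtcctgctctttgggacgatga
Jph2: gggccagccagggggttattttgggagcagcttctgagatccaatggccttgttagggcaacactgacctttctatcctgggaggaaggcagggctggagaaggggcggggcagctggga
Pdlim5: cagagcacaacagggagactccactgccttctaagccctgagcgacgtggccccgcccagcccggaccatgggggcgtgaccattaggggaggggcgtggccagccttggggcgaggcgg
Flnc: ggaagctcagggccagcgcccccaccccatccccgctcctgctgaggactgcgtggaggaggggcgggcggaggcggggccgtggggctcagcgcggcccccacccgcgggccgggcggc
Mybpc3: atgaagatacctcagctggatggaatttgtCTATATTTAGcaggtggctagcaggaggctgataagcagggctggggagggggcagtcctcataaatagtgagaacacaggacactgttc
Actc1: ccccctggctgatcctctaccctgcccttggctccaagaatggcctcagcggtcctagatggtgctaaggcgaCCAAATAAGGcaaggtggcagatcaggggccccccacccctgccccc
Ldb3: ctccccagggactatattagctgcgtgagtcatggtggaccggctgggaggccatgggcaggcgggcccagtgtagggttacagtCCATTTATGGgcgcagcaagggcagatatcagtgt
Myl3: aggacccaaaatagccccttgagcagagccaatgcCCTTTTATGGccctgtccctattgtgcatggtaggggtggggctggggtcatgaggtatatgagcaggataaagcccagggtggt
Myom1: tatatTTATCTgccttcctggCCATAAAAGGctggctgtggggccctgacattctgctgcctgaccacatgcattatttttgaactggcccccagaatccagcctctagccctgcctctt
Smyd1 had the reverse of a TATA box 28 to 23 bases before its start, and Jph2, Pdlim5 and Flnc had none of the 6 motifs in these windows. Mybpc3 had its MEF2 site 90 bases before the start. The CArG boxes of Actc1, Ldb3, Myl3 and Myom1 began 47, 35, 85 and 99 bases before the start, and Myom1 also held a GATA site. These 4 genes were among the 28 of 34 members (82.4%) with all 6 treatment intervals within 1.5-fold of sham. Pdlim5, without a CArG box in its window, was among them too. Whether a CArG box goes with stability was not tested.

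A gene is called here where limma's moderated test, fitted on all 24 arrays, gave a p-value adjusted by Benjamini and Hochberg over the 18820 genes below 0.05. After I30, 0 members were called in wildtype hearts, where 2.39% of all genes were, and 0 in Per2-/- hearts, where 0% were; before adjustment 1 and 0 members had p under 0.05. After IP0, 2 members rose in wildtype hearts, Smyd1 and Jph2, against 0.85% of all genes, and 0 were called in Per2-/- hearts against 0.159%, with 6 and 5 members at an unadjusted p under 0.05. After I30R60, 1 member rose in each genotype, Flnc in both, against 2.47% of all genes in wildtype and 4.79% in Per2-/- hearts. With both genotypes averaged, 0 members were called after I30 (1.61% of all genes), 3 rose after IP0 (Smyd1, Jph2 and Pdlim5, 1.94%) and 2 rose after I30R60 (Flnc and Tcap, 9.34%). The share of members called was 8.82% after IP0 and 5.88% after I30R60 over both genotypes, above and below the shares of all genes. The 3 treatments of a genotype share the same sham hearts, so their differences are not independent.

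The median member moved little with each treatment. The median difference from sham over the 34 members was -0.03 after I30, 0.04 after IP0 and -0.01 after I30R60 in wildtype hearts, and -0.01, 0.00 and -0.06 in Per2-/- hearts, with medians over all genes between -0.04 and 0.01 in these 6 comparisons. These medians moved with the scaling: with each array centred on its median they were -0.01, 0.10 and 0.01 in wildtype and 0.02, 0.08 and -0.02 in Per2-/- hearts, and after quantile normalization -0.01, 0.08 and 0.02, and 0.00, 0.04 and -0.03, so that the median after I30R60 in wildtype and after I30 in Per2-/- hearts changed sign. Without the 4 arrays with high Myl7 they were -0.05, 0.02 and 0.00, and 0.00, 0.03 and -0.04. The median size of a difference, without its sign, was 0.06, 0.09 and 0.03 for the members in wildtype hearts against 0.15, 0.11 and 0.11 for all genes, and 0.04, 0.05 and 0.07 against 0.10, 0.10 and 0.13 in Per2-/- hearts. In whole tissue, fewer cardiomyocytes and less RNA per cardiomyocyte cannot be told apart, and so a shift of the whole group would not have named its source.

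**Figure D3:**
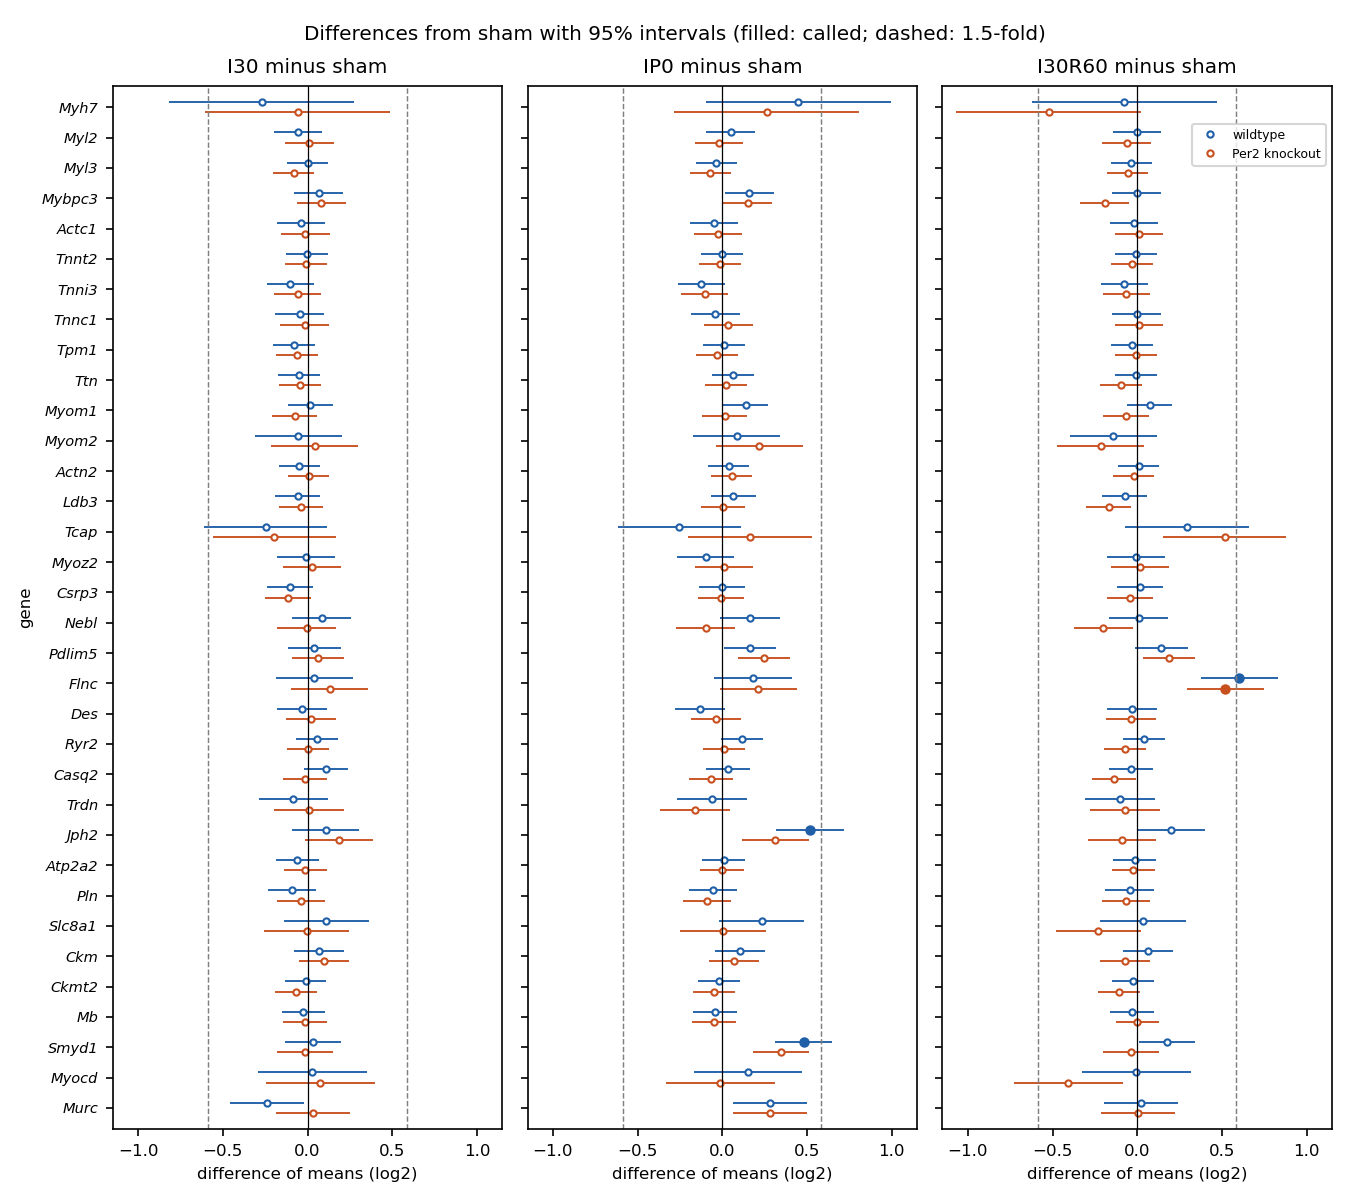
Difference from the sham hearts of the same genotype (log2) for each member after I30, IP0 and I30R60, with 95% confidence intervals, wildtype in blue and Per2-/- in orange; filled points were called and dashed lines mark 1.5-fold. Only Smyd1 and Jph2 after IP0 in wildtype hearts and Flnc after I30R60 in both genotypes are filled, and the intervals of Myh7 are the widest.

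Of the thick filament, the light chains Myl2 and Myl3 stayed almost level and myosin binding protein C (Mybpc3), which tunes cross-bridge cycling, moved by up to 0.34 between groups. Myl3 read 12.97, 12.98 and 12.92 in the 3 wildtype sham hearts, 12.89, 13.01 and 12.98 after I30, 12.93, 12.95 and 12.89 after IP0 and 12.90, 12.94 and 12.93 after I30R60. Without Per2 it read 12.995, 13.03 and 13.03 in sham hearts, 12.96, 12.94 and 12.91 after I30, 12.95, 12.97 and 12.94 after IP0 and 12.94, 12.95 and 12.997 after I30R60. The group means of Myl3 spanned 0.10, the smallest range of this role, and those of Myl2 spanned 0.11. In Per2-/- hearts the I30 and IP0 arrays of Myl3 were below the sham arrays, and the other treated groups overlapped their sham group; no difference was called.

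Mybpc3 read 12.01, 11.99 and 12.04 in the 3 wildtype sham hearts, 12.13, 12.09 and 12.01 after I30, 12.21, 12.18 and 12.12 after IP0 and 11.99, 12.04 and 11.98 after I30R60. Its signals in the Per2-/- groups were 12.10, 12.09 and 12.01 for sham, 12.21, 12.09 and 12.14 for I30, 12.23, 12.15 and 12.27 for IP0 and 11.84, 11.78 and 12.004 for I30R60. All 3 IP0 hearts were above all 3 sham hearts in each genotype, and all 3 Per2-/- I30R60 hearts were below their sham hearts. The differences were 0.16 ± 0.07 (SE) and 0.15 ± 0.07 (SE) after IP0 and -0.19 ± 0.07 (SE) after I30R60 in Per2-/- hearts, with adjusted p of 0.36, 0.586 and 0.129, so none was called. With a variance trend or only genes of a mean of at least 6, the fall after I30R60 in Per2-/- hearts was called (adjusted p = 0.0212 and 0.0387), and under these settings or with median centring Mybpc3 was called after IP0 over both genotypes (0.0155 to 0.0281). Over the 8 groups together Mybpc3 did differ by the moderated F test (adjusted p = 0.0295).

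Myh7, the beta heavy chain, is the slow and fetal isoform of myosin in the mouse heart; it is described for its range, the widest among the members, and was singled out after its values were seen. Myh7 read 7.43, 7.97 and 7.83 in the 3 wildtype sham hearts, 6.99, 7.61 and 7.81 after I30, 8.40, 8.22 and 7.95 after IP0 and 7.44, 7.83 and 7.72 after I30R60. For Myh7 in Per2-/- mice the sham hearts read 8.31, 8.56 and 7.95, the I30 hearts 8.17, 8.36 and 8.11, the IP0 hearts 8.34, 8.44 and 8.82 and the I30R60 hearts 7.48, 7.26 and 8.51. The arrays of a group differed by up to 1.25, in Per2-/- I30R60 hearts, and every treated group overlapped its sham group. Over the 12 arrays of each genotype the lowest, median and highest values were 6.99, 7.82 and 8.40 in wildtype and 7.26, 8.32 and 8.82 in Per2-/- hearts. The difference between genotypes over all treatments was 0.43 ± 0.13 (SE) with an adjusted p of 0.117, and that in I30 hearts, where the 2 groups did not overlap, was 0.74 ± 0.26 (SE) with an adjusted p of 0.231. Neither was called, and the F test over the 8 groups gave an adjusted p of 0.0575. With a variance trend, only genes of a mean of at least 6 or median centring, that F test did call Myh7 (adjusted p = 0.0188, 0.0253 and 0.0457). Myh7 has 2 further probe sets, shared with Myh6 and with Mhrt, and these were left out.

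The thin filament was the most even of the roles with more than 3 members: the 5 genes had ranges of 0.042 to 0.15, and each of the 30 intervals of its treatment differences lay within 1.5-fold. Tnnt2 encodes troponin T, which ties the troponin complex to tropomyosin. Tnnt2 read 13.38, 13.40 and 13.37 in the 3 wildtype sham hearts, 13.29, 13.44 and 13.43 after I30, 13.38, 13.41 and 13.37 after IP0 and 13.38, 13.36 and 13.41 after I30R60. The Per2-/- values of Tnnt2 were 13.36, 13.36 and 13.41 in sham hearts, 13.38, 13.38 and 13.33 after I30, 13.36, 13.39 and 13.34 after IP0 and 13.31, 13.38 and 13.35 after I30R60. The 24 values spanned 0.14 and all groups overlapped. The others were cardiac actin (Actc1, range 0.048), tropomyosin (Tpm1, 0.089), the inhibitory troponin Tnni3 (0.12) and the calcium-binding troponin Tnnc1 (0.15), and none was called in a comparison. Tnni3 was lower after IP0 by a log2 difference of -0.11 ± 0.05 (SE) over both genotypes, with an adjusted p of 0.249, which missed the threshold and passed it with a variance trend (0.0430). Tnnc1 was higher in Per2-/- than in wildtype hearts over all treatments by 0.096 ± 0.034 (SE), with an adjusted p of 0.203. That difference of Tnnc1 also passed the threshold with a variance trend (0.031).

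Titin (Ttn), the spring from Z disc to M band, and Myom1, which crosslinks thick filaments in the M band, had ranges of 0.14 each. Myom1 read 11.04, 11.04 and 11.07 in the 3 wildtype sham hearts, 11.12, 11.04 and 11.04 after I30, 11.16, 11.16 and 11.26 after IP0 and 11.10, 11.20 and 11.08 after I30R60. Without Per2 it read 11.15, 11.17 and 11.15 in sham hearts, 11.09, 11.03 and 11.12 after I30, 11.20, 11.18 and 11.12 after IP0 and 11.08, 11.02 and 11.17 after I30R60. In wildtype hearts the IP0 and I30R60 arrays of Myom1 were above the sham arrays, and in Per2-/- hearts the I30 arrays were below them. The difference after IP0 in wildtype hearts was 0.14 ± 0.06 (SE), with an adjusted p of 0.39. A second probe set of Ttn at a mean of 10.55, fitted as a row of its own, was lower after I30R60 over both genotypes by a log2 difference of -0.29 ± 0.08 (SE, adjusted p = 0.0406), while the brighter one at 11.88 differed by -0.05 ± 0.04 (SE).

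Myom2, the M band protein of fast muscle and adult heart, was the only member called between genotypes. Myom2 read 10.90, 11.33 and 11.04 in the 3 wildtype sham hearts, 10.87, 11.05 and 11.19 after I30, 11.31, 11.23 and 10.996 after IP0 and 10.94, 11.12 and 10.79 after I30R60. Its signals in the Per2-/- groups were 10.68, 10.50 and 10.69 for sham, 10.68, 10.77 and 10.54 for I30, 10.93, 10.77 and 10.82 for IP0 and 10.22, 10.49 and 10.50 for I30R60. In each of the 4 treatments the 3 Per2-/- hearts were below the 3 wildtype hearts, and 10 of the 12 Per2-/- arrays were below every wildtype array. Averaged over the 4 treatments, the Per2-/- minus wildtype difference of Myom2 was -0.43 ± 0.06 (SE), or to 0.74 of the wildtype level, with an adjusted p of 0.000269, against 1.88% of all genes called in this comparison. Leaving out any 1 of the 24 arrays kept the difference between -0.46 and -0.40, and it was -0.43 (adjusted p = 0.00462) without the 4 arrays with high Myl7. Within single treatments it was -0.47 in sham, -0.38 in I30, -0.34 in IP0 and -0.55 in I30R60 hearts, with adjusted p of 0.0827 to 0.683, so that within a treatment 0 members were called, against 0.266%, 0.664%, 0.0797% and 0.175% of all genes. Before adjustment 2, 3, 1 and 2 members had p under 0.05. With a variance trend Myom2 was called in sham and in I30R60 hearts (adjusted p = 0.0436 and 0.0198), and with the filter at a mean of 6 in I30R60 hearts (0.0389). Myom2 is not on the chromosome of Per2, on which 2 members, Des and Tnnt2, lie. The methods give C57BL6 mice from The Jackson Laboratory as wildtype for the arrays, and littermate controls for the fatty acid measurements. Strain background and the loss of Per2 therefore cannot be told apart in the genotype comparisons, those of the further genes below included.

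Of the 9 genes of the Z disc and intermediate filament, 3 rose after a treatment. Filamin C (Flnc), an actin crosslinker at the Z disc that is known for binding to damaged myofibrils, rose after I30R60. Flnc read 9.81, 9.71 and 9.91 in the 3 wildtype sham hearts, 9.88, 9.93 and 9.75 after I30, 9.76, 9.95 and 10.27 after IP0 and 10.32, 10.50 and 10.43 after I30R60. For Flnc in Per2-/- mice the sham hearts read 9.89, 9.75 and 9.75, the I30 hearts 9.94, 9.99 and 9.86, the IP0 hearts 9.998, 9.92 and 10.12 and the I30R60 hearts 10.30, 10.19 and 10.47. All 6 I30R60 hearts were above all 6 sham hearts. The difference was 0.60 ± 0.11 (SE) in wildtype hearts (1.52-fold, adjusted p = 0.0029), 0.52 ± 0.11 (SE) in Per2-/- hearts (1.43-fold, adjusted p = 0.00676) and 0.56 ± 0.08 (SE) over both (adjusted p = 5.54e-05). I30 alone gave 0.04 ± 0.11 (SE) and 0.13 ± 0.11 (SE), which were not called. Without the 4 arrays with high Myl7 the rise over both genotypes was 0.50 (adjusted p = 0.0109), and those within wildtype and Per2-/- hearts, at 0.50 each, were no longer called (adjusted p = 0.258 and 0.0531), with 1 wildtype sham array left.

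Telethonin (Tcap), the cap of titin at the Z disc, had a wide spread between arrays. Tcap read 9.98, 10.42 and 10.46 in the 3 wildtype sham hearts, 10.05, 10.23 and 9.84 after I30, 10.003, 10.08 and 10.01 after IP0 and 10.29, 10.55 and 10.90 after I30R60. The Per2-/- values of Tcap were 9.91, 10.19 and 10.50 in sham hearts, 10.20, 9.92 and 9.89 after I30, 10.11, 10.43 and 10.56 after IP0 and 10.54, 10.92 and 10.69 after I30R60. In wildtype hearts the sham and I30R60 groups overlapped, and in Per2-/- hearts they did not. The difference after I30R60 was 0.29 ± 0.17 (SE) in wildtype and 0.52 ± 0.17 (SE) in Per2-/- hearts, neither called (adjusted p = 0.504 and 0.102, the latter 0.0413 to 0.0484 with array weights, a variance trend or the filter at a mean of 6), and 0.41 ± 0.12 (SE) over both (adjusted p = 0.0425). The call over both genotypes held in 5 of the 12 fits that left out 1 array of these groups. It was lost without wildtype sham replicate 1, wildtype I30R60 replicates 2 and 3, Per2-/- sham replicates 1 and 2, and Per2-/- I30R60 replicates 2 and 3 (adjusted p of up to 0.127), and without the 4 arrays with high Myl7 (adjusted p = 0.147).

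Pdlim5, a PDZ and LIM domain scaffold that brings kinases to the Z disc, rose after IP0 over both genotypes. Pdlim5 read 10.88, 10.81 and 11.01 in the 3 wildtype sham hearts, 10.99, 10.86 and 10.98 after I30, 11.04, 11.001 and 11.15 after IP0 and 11.09, 10.98 and 11.05 after I30R60. Without Per2 it read 10.90, 10.87 and 10.82 in sham hearts, 10.90, 10.96 and 10.92 after I30, 11.08, 11.03 and 11.22 after IP0 and 10.998, 11.03 and 11.12 after I30R60. The IP0 and sham groups overlapped in wildtype and not in Per2-/- hearts. The difference was 0.16 ± 0.07 (SE) in wildtype and 0.25 ± 0.07 (SE) in Per2-/- hearts, neither called (adjusted p = 0.384 and 0.298), and 0.21 ± 0.05 (SE) over both (adjusted p = 0.0475). Its difference after I30R60 over both genotypes, 0.16 ± 0.05 (SE), was not called (adjusted p = 0.0544) and was with a variance trend, median centring, the filter at a mean of 6 or a replicate block (0.0090 to 0.0416). The call after IP0 held in 1 of 12 fits that left out an array, the one without wildtype sham replicate 3, and the difference was 0.11 (adjusted p = 0.629) without the 4 arrays with high Myl7.

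The other 6 of this role were not called in a comparison. Alpha-actinin (Actn2), which crosslinks actin at the Z disc, had a range of 0.13, desmin (Des), the intermediate filament around the Z discs, 0.13, Csrp3, a LIM protein of the Z disc, 0.13, Ldb3 (Cypher) 0.18 and nebulette (Nebl) 0.22. Myoz2 read 12.21, 12.13 and 12.23 in the 3 wildtype sham hearts, 12.14, 12.22 and 12.19 after I30, 12.09, 12.08 and 12.11 after IP0 and 12.13, 12.32 and 12.11 after I30R60. Its signals in the Per2-/- groups were 12.01, 11.98 and 12.23 for sham, 12.07, 12.15 and 12.09 for I30, 12.02, 12.11 and 12.12 for IP0 and 11.95, 12.13 and 12.21 for I30R60. Myoz2, which anchors calcineurin at the Z disc, had the smallest range of this role at 0.12, and its arrays were below sham after IP0 in wildtype hearts and overlapped sham after the other 5 treatments. Ldb3 and Nebl were lower after I30R60 in Per2-/- hearts before adjustment, by -0.17 ± 0.06 (SE) and -0.20 ± 0.08 (SE), with adjusted p of 0.15 and 0.206; that of Ldb3 passed with a variance trend (0.0269) and the filter at a mean of 6 (0.0406).

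**Figure D4:**
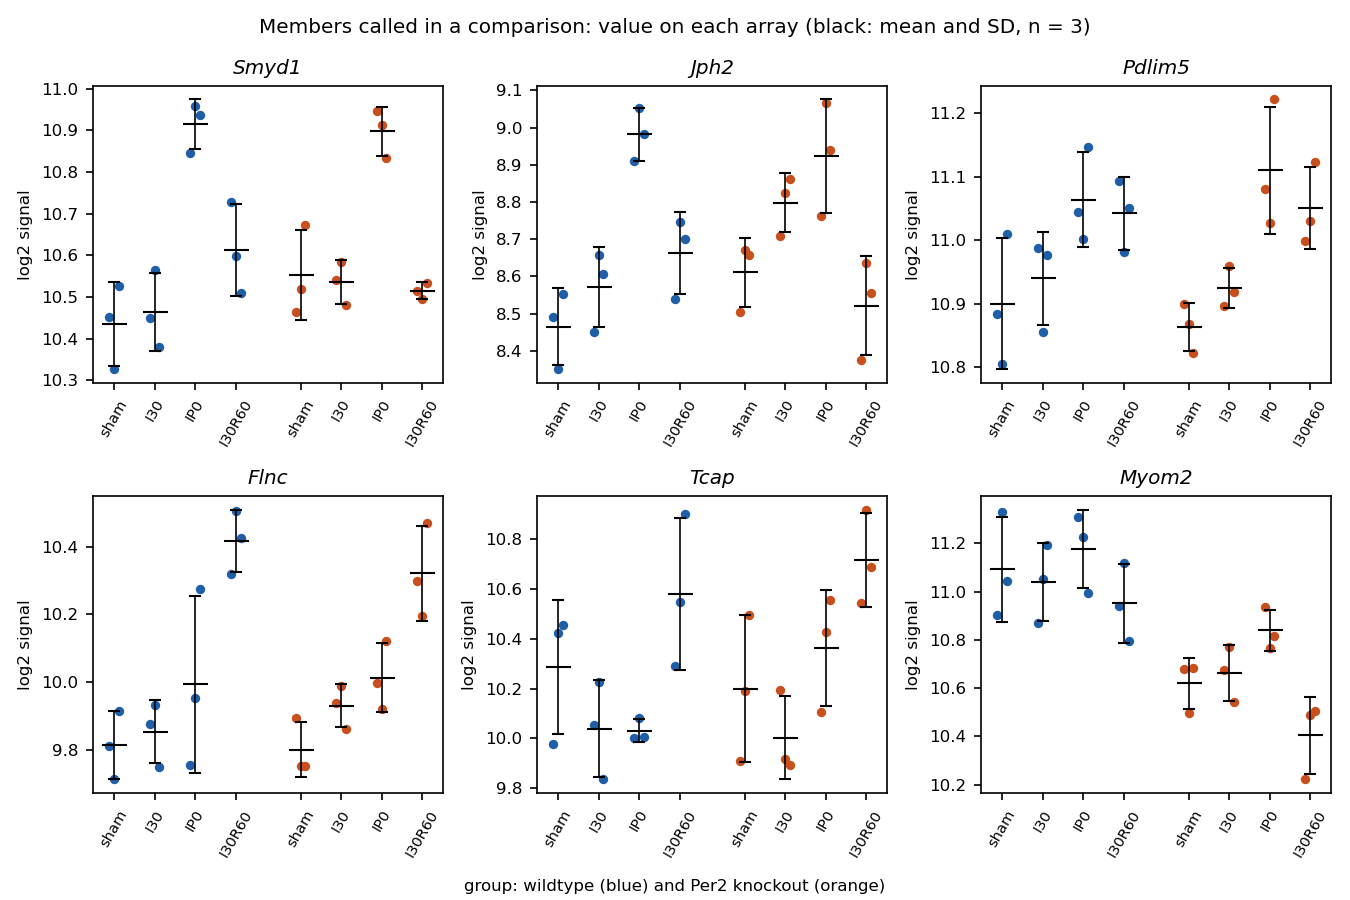
Log2 signal on each array of the 6 members called in a comparison, by group (wildtype in blue, Per2-/- in orange), with the mean and SD of 3 arrays in black; the axes do not start at 0. Smyd1 and Jph2 are highest in the IP0 groups, Flnc and Tcap in the I30R60 groups, and Myom2 is lower over all Per2-/- groups.

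Of the calcium release genes, junctophilin 2 (Jph2) rose after IP0; it holds the sarcoplasmic reticulum to the transverse tubule membrane so that the release channels face the calcium channels. Jph2 read 8.49, 8.35 and 8.55 in the 3 wildtype sham hearts, 8.45, 8.66 and 8.61 after I30, 8.91, 9.05 and 8.98 after IP0 and 8.54, 8.75 and 8.70 after I30R60. For Jph2 in Per2-/- mice the sham hearts read 8.50, 8.67 and 8.66, the I30 hearts 8.71, 8.82 and 8.86, the IP0 hearts 8.76, 9.07 and 8.94 and the I30R60 hearts 8.37, 8.63 and 8.55. The 3 IP0 hearts were above the 3 sham hearts in each genotype, as were the 3 I30 hearts in Per2-/- mice. After IP0 the difference was 0.52 ± 0.10 (SE) in wildtype hearts (1.43-fold, adjusted p = 0.0115) and 0.31 ± 0.10 (SE) in Per2-/- hearts (adjusted p = 0.309, not called), and the interaction of genotype and IP0, -0.20 ± 0.14 (SE), had an adjusted p of 0.997. Over both genotypes it was 0.41 ± 0.07 (SE) (adjusted p = 0.00229). The call in wildtype hearts was lost without wildtype sham replicate 2 (adjusted p = 0.0629) and without wildtype IP0 replicate 2 (0.0723), and without the 4 arrays with high Myl7 the differences were 0.43 in wildtype hearts and 0.38 over both (adjusted p = 0.441 and 0.142).

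Jph2 has a second probe set with nearly the same mean, 8.61 against 8.69, and on it the difference after IP0 in wildtype hearts was 0.22 ± 0.11 (SE, adjusted p = 0.483), which was not called. Triadin (Trdn), the anchor of calsequestrin at the release channel, has 19 probe sets, with means from 2.10 to 10.69. The brightest, which stands for the gene here, was not called. Its mean was 10.73 in wildtype sham and 10.67 in wildtype IP0 hearts, a move opposite to that of most probe sets. After IP0 in wildtype hearts 16 of the 19 were above 0, from -0.09 to 0.57 with a median of 0.21, and 1 was called (adjusted p = 0.01). In Per2-/- hearts 11 were above 0 and 0 were called. Over both genotypes 16 were above 0 and 1 was called (adjusted p = 0.0385). Probe sets of a gene share its RNA and are not replicates, and which exons they cover is not given in the sources used here.

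**Figure D5:**
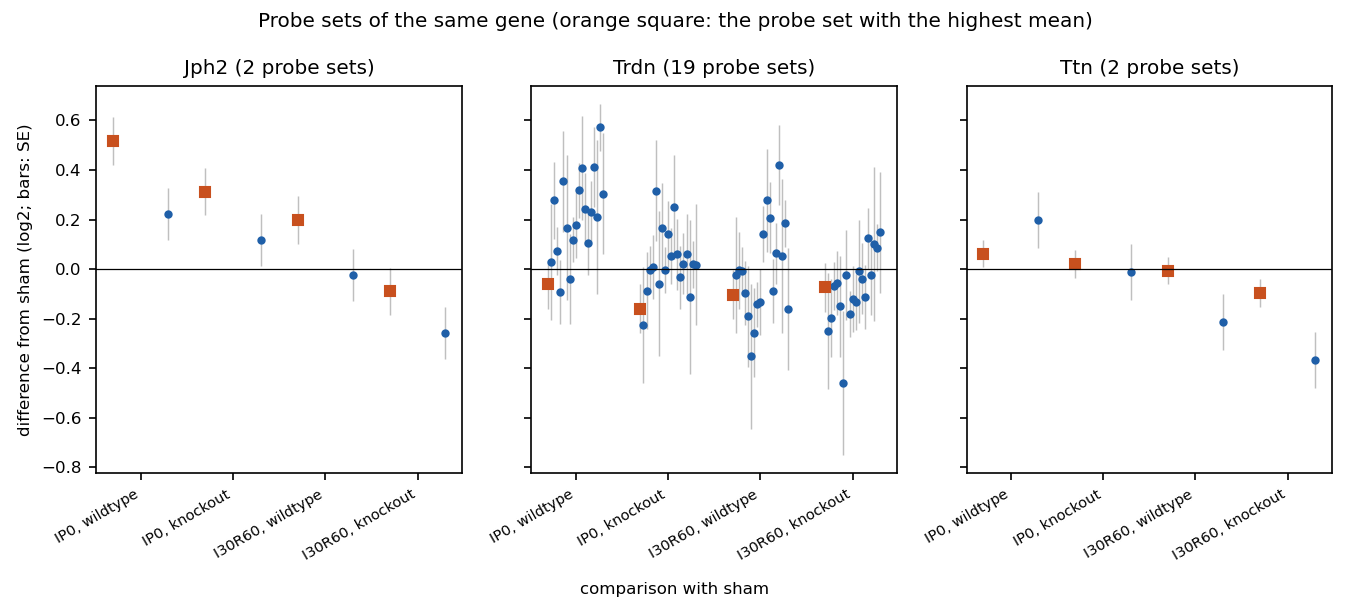
Difference from sham (log2, bars give the SE) for each probe set of Jph2, Trdn and Ttn after IP0 and I30R60 in wildtype and Per2-/- hearts, with the probe set of the highest mean as an orange square. The 2 probe sets of Jph2 differ in size after IP0 (0.52 and 0.22 in wildtype hearts), and the 19 of Trdn spread on both sides of 0.

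The release channel itself was even. Ryr2 read 11.73, 11.70 and 11.74 in the 3 wildtype sham hearts, 11.80, 11.81 and 11.74 after I30, 11.87, 11.79 and 11.85 after IP0 and 11.78, 11.77 and 11.74 after I30R60. The Per2-/- values of Ryr2 were 11.76, 11.76 and 11.85 in sham hearts, 11.78, 11.77 and 11.82 after I30, 11.80, 11.78 and 11.80 after IP0 and 11.64, 11.77 and 11.74 after I30R60. Ryr2, the ryanodine receptor of the heart, had a range of 0.12; its wildtype IP0 arrays were above sham, the other treated groups overlapped sham, and no difference was called. Casq2, calsequestrin, which stores calcium inside the reticulum, had a range of 0.17, and its differences of 0.14 ± 0.06 (SE) between sham hearts of the genotypes and -0.13 ± 0.06 (SE) after I30R60 in Per2-/- hearts were not called (adjusted p = 0.636 and 0.263).

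None of the calcium removal and energy genes was called in a comparison. Atp2a2 encodes SERCA2, the pump that refills the reticulum. Atp2a2 read 13.23, 13.18 and 13.22 in the 3 wildtype sham hearts, 13.06, 13.18 and 13.20 after I30, 13.26, 13.19 and 13.20 after IP0 and 13.17, 13.17 and 13.24 after I30R60. Without Per2 it read 13.19, 13.20 and 13.27 in sham hearts, 13.18, 13.21 and 13.22 after I30, 13.24, 13.21 and 13.19 after IP0 and 13.13, 13.24 and 13.21 after I30R60. Its group means spanned 0.070, and the lowest array was wildtype I30 replicate 1. Phospholamban (Pln), the brake of that pump, had a range of 0.095, and the sodium-calcium exchanger (Slc8a1), which extrudes calcium over the cell membrane, 0.29 at a lower signal of 9.66.

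Mb read 13.28, 13.23 and 13.26 in the 3 wildtype sham hearts, 13.14, 13.31 and 13.25 after I30, 13.23, 13.25 and 13.16 after IP0 and 13.22, 13.23 and 13.22 after I30R60. Its signals in the Per2-/- groups were 13.21, 13.25 and 13.29 for sham, 13.28, 13.26 and 13.17 for I30, 13.18, 13.21 and 13.21 for IP0 and 13.24, 13.25 and 13.27 for I30R60. Myoglobin (Mb), which stores oxygen, had the smallest range of the energy genes at 0.053. Its Per2-/- IP0 arrays were below sham and the other treated groups overlapped sham, with no difference called. The creatine kinases of muscle cytosol (Ckm) and mitochondria (Ckmt2) had ranges of 0.17 and 0.11. All 3 energy genes and all 3 removal genes stayed within 1.5-fold in every treatment difference.

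The 3 genes of assembly and transcription had ranges of 0.48 to 0.52, with a median of 0.48 beside 0.22 in the thick and 0.089 in the thin filament. Smyd1, a lysine methyltransferase of striated muscle that chaperones myosin into the thick filament, rose after IP0 and had the smallest range of this role. Smyd1 read 10.45, 10.33 and 10.53 in the 3 wildtype sham hearts, 10.45, 10.56 and 10.38 after I30, 10.85, 10.96 and 10.94 after IP0 and 10.73, 10.60 and 10.51 after I30R60. For Smyd1 in Per2-/- mice the sham hearts read 10.46, 10.52 and 10.67, the I30 hearts 10.54, 10.58 and 10.48, the IP0 hearts 10.95, 10.91 and 10.83 and the I30R60 hearts 10.52, 10.49 and 10.53. All 6 IP0 hearts were above the other 18 arrays. The difference was 0.48 ± 0.08 (SE) in wildtype (1.39-fold, adjusted p = 0.00436), 0.35 ± 0.08 (SE) in Per2-/- hearts (1.27-fold, adjusted p = 0.112, not called) and 0.41 ± 0.06 (SE) over both (adjusted p = 0.000329), and the interaction was -0.13 ± 0.11 (SE) (adjusted p = 0.997). The rise in Per2-/- hearts was called with a variance trend, array weights, median centring or the filter at a mean of 6 (adjusted p of 0.0116 to 0.0321). The rise over both genotypes stayed at 0.41 without the 4 arrays with high Myl7 (adjusted p = 0.0145), where that within wildtype hearts was 0.39 and no longer called (adjusted p = 0.285). After I30, without reperfusion, Smyd1 differed from sham by 0.03 ± 0.08 (SE) in wildtype and -0.02 ± 0.08 (SE) in Per2-/- hearts.

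Murc, a caveolar protein of muscle also named cavin 4, followed a like pattern at a lower signal. Murc read 8.48, 8.48 and 8.53 in the 3 wildtype sham hearts, 8.11, 8.35 and 8.32 after I30, 8.73, 8.77 and 8.84 after IP0 and 8.60, 8.47 and 8.49 after I30R60. The Per2-/- values of Murc were 8.38, 8.34 and 8.26 in sham hearts, 8.35, 8.38 and 8.35 after I30, 8.69, 8.64 and 8.49 after IP0 and 8.60, 8.03 and 8.36 after I30R60. The IP0 hearts were above the sham hearts in each genotype, wildtype I30 hearts were below, and the Per2-/- arrays were below the wildtype arrays in sham and IP0 hearts. The difference after IP0 was 0.28 ± 0.10 (SE) in wildtype and 0.28 ± 0.10 (SE) in Per2-/- hearts. Over both genotypes it was 0.28 ± 0.07 (SE) with an adjusted p of 0.0531, so it was not called. Under 6 of the 12 alternatives run for this comparison it was called (adjusted p of 0.0148 to 0.0463). Myocardin (Myocd), the coactivator of serum response factor, had a range of 0.48, and its difference of -0.41 ± 0.15 (SE) after I30R60 in Per2-/- hearts had an adjusted p of 0.152.

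Over the 8 groups together, the moderated F test called 7 of the 34 members (Smyd1, Myom2, Flnc, Jph2, Murc, Mybpc3 and Tcap), against 11.2% of all genes. None of the interactions of genotype with a treatment was called: 0 members for I30, 0 for IP0 and 0 for I30R60, with 0% of all genes in each, and 0, 1 and 1 members at an unadjusted p under 0.05. A call in one genotype and not in the other therefore does not show a difference between them.

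Other genes of the same structures, from lists chosen by name, were followed as well. Of 46 further sarcomere genes, 6 rose and 0 fell after I30R60 in wildtype hearts (13%, beside 2.47% of all genes called), 4 and 0 in Per2-/- hearts (8.7% beside 4.79%), and 10 and 0 over both (21.7% beside 9.34%). Klhl40, which stabilizes nebulin and leiomodin, rose by 0.95 ± 0.12 (SE, adjusted p = 5.42e-05) in wildtype hearts, Xirp1 by 0.89 ± 0.13, Pdlim3 by 0.75 ± 0.12 and the tropomyosin Tpm3 by 0.50 ± 0.10, and in Per2-/- hearts the same 4 rose by 0.86, 1.21, 0.63 and 0.67. The call of Tpm3 in wildtype hearts was lost without wildtype I30R60 replicate 1 (0.38, adjusted p = 0.0611). It was also lost with the mean of all probe sets of the gene (0.37, adjusted p = 0.069). Without the 4 arrays with high Myl7 these 4 were still called over both genotypes and in Per2-/- hearts, and in wildtype hearts Klhl40 and Pdlim3 were (0.85 and 0.67) while Xirp1 and Tpm3 were not (adjusted p = 0.0643 and 0.207). After I30 0 of the 46 were called in either genotype by limma, where 4 and 0 had an unadjusted p under 0.05.

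Xirp1, an actin-binding repeat protein of the intercalated disc, also rose after IP0, from a mean of 9.61 to 10.38 in wildtype hearts (0.77 ± 0.13, adjusted p = 0.00667) and from 9.40 to 10.14 in Per2-/- hearts (0.74 ± 0.13, adjusted p = 0.0203). It was the only one of the 46 called in either genotype (2.17%, beside 0.85% and 0.159% of all genes). The call in Per2-/- hearts was lost without any 1 of the 6 arrays compared (adjusted p of 0.0532 to 0.124), and both were lost without the 4 arrays with high Myl7 (0.272 and 0.311), where the rise over both genotypes, 0.72, was still called (0.0236). Trim54 rose by 0.29 ± 0.06 over both genotypes, which was not called without those 4 arrays (0.22, adjusted p = 0.387).

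Between genotypes over all treatments 4 of the 46 were higher in Per2-/- hearts and 0 lower (8.7%, beside 1.88% of all genes): the tropomyosin Tpm2 by 0.82 ± 0.12 (SE, adjusted p = 0.000265), the Z disc protein myotilin (Myot) by 0.79 ± 0.12 (adjusted p = 0.000555), Fhl1 by 0.24 ± 0.06 and Synpo2 by 0.24 ± 0.06. The Tpm2 means were 5.47 to 5.96 in the 4 wildtype groups and 6.39 to 6.80 in the 4 Per2-/- groups. Tpm2 and Myot were called in each of 24 fits that left out an array and without the 4 arrays with high Myl7 (0.76 and 0.82), while Fhl1 and Synpo2 held in 16 and 11 of the 24 and were not called without the 4 (adjusted p = 0.120 and 0.158). Myot was also called in I30 hearts alone, at 1.09 ± 0.24 (adjusted p = 0.0354), and that call was lost without any 1 of the 6 arrays compared (0.0745 to 0.133). Of the 10 skeletal muscle markers 1, Myl1, was higher in Per2-/- hearts over all treatments, by 0.58 (adjusted p = 0.00306), and in sham hearts alone.

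Of 24 further calcium handling genes, 1 was called after I30R60 in each genotype (4.17%, beside 2.47% and 4.79% of all genes) and 1 between genotypes over all treatments (4.17% beside 1.88%). Atp2b4, a calcium pump of the cell membrane, was higher after I30R60 in wildtype hearts by 0.42 ± 0.10 (SE, adjusted p = 0.0202), a call lost without wildtype sham replicate 1 or 3 or wildtype I30R60 replicate 1 (up to 0.129). Tmem38b, a cation channel of the reticulum, was higher in Per2-/- hearts by 0.39 ± 0.10 (adjusted p = 0.0277), a call lost without Per2-/- sham replicate 1 or Per2-/- I30R60 replicate 1 or 3 (up to 0.141). That call was also lost with the mean of all probe sets of the gene (0.27, adjusted p = 0.542). Calreticulin (Calr), compared between genotypes over all treatments, was lower without Per2, with a difference of -0.16 ± 0.04 (adjusted p = 0.0214). None of these 3 was called without the 4 arrays with high Myl7 (adjusted p = 0.230, 0.0533 and 0.0724).

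Of 13 muscle transcription factors, 1 rose after IP0 (7.69%, beside 0.85% of all genes in wildtype hearts and 1.94% over both genotypes): serum response factor (Srf), whose mean was 8.97 in wildtype sham and 9.33 in wildtype IP0 hearts and whose ranges, 8.93 to 9.02 and 9.25 to 9.41, did not overlap. The difference was 0.36 ± 0.08 (SE, adjusted p = 0.0443) in wildtype hearts, a call lost without any 1 of the 6 arrays compared (0.0715 to 0.182), and 0.29 ± 0.06 (adjusted p = 0.0134) over both genotypes, which held in each of 12 such fits. Neither was called without the 4 arrays with high Myl7, at 0.36 and 0.28 (adjusted p = 0.455 and 0.218). Gata4 was lower after I30R60 over both genotypes by a log2 difference of -0.35 ± 0.09 (adjusted p = 0.0215), which was lost without wildtype sham replicate 1, wildtype I30R60 replicate 1, Per2-/- sham replicate 3 or Per2-/- I30R60 replicate 3 (up to 0.0671) and without the 4 arrays (0.137). The members of the windows shown above that rose after IP0, Smyd1, Jph2 and Pdlim5, had no CArG box there. Those windows hold only 120 bases before 1 start of each gene. Most members lacked the box as well, since it stood in 5 of the 30 members with a promoter. Whether serum response factor acts on Smyd1, Jph2 and Pdlim5 was not tested.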

How the data were processed

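The values were log2 signals of 24 Affymetrix Mouse Gene ST arrays (version 1.1 in the study's methods, 2.1 in the labels), which the authors normalized with RMA in Partek and deposited as 1 table without detection calls. The genome build and any filter are not given in the sources used here, and RNA was extracted with Trizol per the labels and RNeasy per the methods. The number of arrays limits the precision, since no read depth exists. Of 35555 probe sets, 21218 were paired with 1 gene symbol, 1881 with several and 12456 were not listed. The probe set with the highest mean stood for a gene, which gave 18820 genes. A linear model with 1 mean per group was fitted to all 24 arrays with limma 3.58.1 in R 4.3.3, with moderated tests and Benjamini-Hochberg adjustment over all genes at 0.05. The fit was tested on simulated data. Samples were grouped by the labels. All members were named by role, with array values for the 6 with the lowest p in the F test and for the one with the smallest range in each role; values of Tcap, Pdlim5 and Myh7 were added after they were seen. From each further list, up to 4 called genes with the largest differences were named. Members and lists were chosen with earlier results of these data known. Alternatives were array weights, a variance trend, a robust fit, a filter at a mean of 6, median centring, quantile normalization, other probe set rules, the methods' t-test, other thresholds, a replicate block and leaving out arrays.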

Additional observations from a re-analysis of the deposited data

Results flagged for a closer look

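In 3 cases every array of a treated group moved one way from the sham mean in wildtype hearts and the opposite way in Per2-/- hearts. The Per2-/- minus wildtype difference of the effects was 0.276 for Murc after I30 (-0.24 in wildtype and 0.03 in Per2-/- hearts), -0.215 for Smyd1 after I30R60 (0.18 and -0.04) and -0.113 for Ryr2 after I30R60 (0.04 and -0.07). The interaction test of limma gave adjusted p of 0.738, 0.914 and 0.969, so none passed. Such opposite moves were seen in 2.94% of members after I30, against 5.9% of all genes, and in 5.88% after I30R60, against 5.22%.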

How the results depend on the processing

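Over 9 to 13 alternatives for each result, beside leaving out single arrays, 0 of the tested differences named changed sign, while medians over the members did with the scaling. With only the arrays of the groups compared, 0 members were called after IP0 in wildtype hearts, 0 after I30R60 in Per2-/- hearts and 1 after I30R60 over both genotypes. With a variance trend the counts were 1 after IP0 and 4 after I30R60 in Per2-/- hearts, 6 and 4 over both genotypes, 1 between genotypes in sham and 1 in I30R60 hearts, 2 over all treatments and 11 in the F test. With genes of a mean of at least 6 they were 1 and 4 in Per2-/- hearts, 5 and 4 over both, and 1 between genotypes in I30R60 hearts. Array weights gave 1 after IP0 and 2 after I30R60 in Per2-/- hearts, median centring 1 after IP0 in Per2-/- hearts and 5 over both, and the mean of a gene's probe sets 1 after IP0 in wildtype hearts. Smaller moves were 4 after IP0 over both with array weights or quantile normalization and 2 with robust moderation or at 0.01, 3 after I30R60 over both with centring, and 9, 10 and 6 in the F test with centring, the filter at 6 and quantile normalization. The methods' t-test, adjusted, called 0 after IP0 and 0 after I30R60 in wildtype and 0 after I30R60 in Per2-/- hearts. At an adjusted p under 0.01, 1 was called after IP0 in wildtype hearts, 1 after I30R60 over both and 4 in the F test. With a 1.5-fold minimum, 0 were called after IP0 in wildtype, 0 after I30R60 in Per2-/- hearts, 0 and 0 over both, and 0 between genotypes. Without the 4 arrays with high Myl7, chosen after seeing the data, counts were 0 after IP0 and 0 after I30R60 in wildtype, 0 after I30R60 in Per2-/- hearts, 1 and 1 over both, and 4 in the F test. Leaving out single arrays gave 1 to 2 after IP0 in wildtype, 1 to 2 after I30R60 in Per2-/- hearts, 2 to 3 after IP0 and 1 to 3 after I30R60 over both, and 5 to 8 in the F test. Which cause lies behind these changes was not tested. The median range of the members was 0.144, and it lay between 0.144 and 0.170 under the alternatives and between 0.140 and 0.165 without single arrays.

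The labels give replicate numbers without saying whether they pair samples, and these values did not settle it. Between arrays of different groups, deviations correlated at a mean of 0.0203 with the same number and -0.0101 otherwise. In 1 of 28 pairs of groups every correlation between arrays of the same number was above 0.1. Yet 19 of 24 arrays correlated best with their own number, and the main fit held no term for it. With the replicate block 2 members were called after IP0 in wildtype hearts and 3 after I30R60 over both genotypes. With 3 arrays per group a difference that was not called may still exist, and no detection calls bear on the lowest signals.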
